A study of Mus musculus with 18 samples.

Results

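The cytosolic ribosome is built from ribosomal RNA and a fixed set of proteins, and the genes of those proteins were followed here in monocytes sorted from mouse spleens. Genes were chosen by symbol. A gene was taken when its symbol was Rpl or Rps followed by a number, with at most a short suffix for a copy, or was Rplp0, Rplp1, Rplp2 or Rpsa. Genes of the ribosomal protein S6 kinases and rows named as pseudogenes were left out. The rule found 89 genes among the 55416 rows of the count table, 36 named for the small subunit and 53 for the large subunit. Of these, 77 were the ordinary subunit genes, called core genes here (31 small, 46 large), and 12 were like-named copies such as Rpl22l1 and Rps27l. Fau and Rack1 are examples of genes that also encode ribosomal proteins but do not match the rule, and they were not used.

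RNA was sequenced from 18 libraries in 6 groups of 3, each library from an independent mouse per the series' design text. Library titles carry a second code of unstated meaning, and 3 of these codes are each on 2 libraries: Dectin-1 knockout PBS 2 and 3, FcgRIIb knockout PBS 1 and 2, and WT IVIg 3 with FcgRIIb knockout PBS 3. Whether libraries that share a code are independent could not be settled from the labels. The mice were C57BL/6 wild type (WT), Dectin-1 knockout or FcgRIIb knockout, and each genotype had a group given PBS and a group given IVIg, with spleen monocytes taken on day 3. IVIg is intravenous immunoglobulin, pooled immunoglobulin G used against autoimmune inflammation. Dectin-1 (gene Clec7a) is a lectin receptor for beta-glucans, and FcgRIIb (gene Fcgr2b) is the inhibitory Fc receptor for immunoglobulin G. The sources used here do not give the age of the mice, the dose or how the knockouts were made. Libraries are numbered 1 to 3 within a group, and the number pairs nothing across groups.

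The small subunit of the ribosome reads the messenger RNA, and the large subunit joins amino acids and releases the chain through an exit tunnel. A stalk of Rplp0, Rplp1 and Rplp2 on the large subunit recruits the translation factors. Most ribosomal protein messenger RNAs begin with a run of pyrimidines, the terminal oligopyrimidine or TOP motif, through which the mTORC1 kinase and the protein LARP1 set their translation and stability. Because most of the proteins are needed in equal numbers, their messenger RNAs are usually abundant and vary together.

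Depth was 16996494 to 48958909 counts in 17 libraries and 719494 counts in FcgRIIb knockout PBS library 2, so the main results that use that library are also given without it. Levels are CPM, the count for each 1000000 counts of the library, after trimmed mean (TMM) scaling of library sizes. The monocyte genes Lyz2 (14559 to 35187 CPM) and Csf1r (1425 to 2795 CPM) were high throughout. Cd3e of T cells reached 1.35 CPM, Ncr1 of natural killer cells 0.967 CPM and Cd79a of B cells 19.3 CPM. Sums over lists of marker genes reached higher. B cell sums were at 217 to 470 CPM, T cell sums at 18.5 to 84.6 CPM and natural killer sums at 0 to 21.9 CPM. Plasma cell sums were at 357 to 2253 CPM, neutrophil sums at 82.3 to 1538 CPM and erythroid sums at 4.67 to 48.9 CPM. Red pulp macrophage sums were at 658 to 1535 CPM and dendritic sums at 319 to 590 CPM. The share of other cells in the sorts was not tested. Clec7a was at 0.247 to 4.05 CPM in the Dectin-1 knockout libraries and at 360 to 956 CPM in the others. Fcgr2b was at 130 to 250 CPM in the FcgRIIb knockout libraries against 208 to 318 CPM elsewhere, which checks no label, since the sources used here do not say which part of the gene was deleted. In bulk samples such as these, fewer cells of a type and less RNA per cell cannot be told apart.

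The promoters came first, because the pyrimidine run at the start is the sequence feature that ribosomal protein genes are known for. RefSeq promoters (GRCm38.p6, an earlier build than that of the counts) matched 64 of the 89 genes by symbol, and 57 of the 77 core genes with 67 annotated starts. Each window below holds the 10 bases before and the 20 from an annotated start, read 5′ to 3′ on the gene's strand. Capitals mark a pyrimidine tract, here a C followed by 5 or more C or T on the gene's strand. The first 5 windows are core genes with a tract that recur below, the next pair are copies, and the last 3 hold no tract:
Rplp2 (chr7:141447641-141447670, plus strand): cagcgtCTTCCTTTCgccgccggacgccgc
Rps27 (chr3:90213629-90213658, minus strand): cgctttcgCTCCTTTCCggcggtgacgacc
Rps24 (chr14:24490668-24490697, plus strand): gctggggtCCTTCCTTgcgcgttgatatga
Rpl35 (chr2:39005112-39005141, minus strand): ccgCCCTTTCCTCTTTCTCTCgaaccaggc
Rpl39 (chrX:37085203-37085232, minus strand): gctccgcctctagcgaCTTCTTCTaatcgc
Rps27l (chr9:66946076-66946105, plus strand): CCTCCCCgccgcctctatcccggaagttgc
Rpl22l1 (chr3:28805498-28805527, plus strand): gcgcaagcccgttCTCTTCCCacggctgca
Rplp0 (chr5:115559457-115559486, plus strand): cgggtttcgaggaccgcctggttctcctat
Rpsa (chr9:120127756-120127785, plus strand): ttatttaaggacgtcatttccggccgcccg
Rpl7l1 (chr17:46782637-46782666, minus strand): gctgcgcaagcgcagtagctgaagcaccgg
A tract lay in the window of 35 of the 67 core starts (52.2%), against 22.0% of 32851 starts of all genes. In Rplp2, Rps27, Rps24 and Rpl35 it crossed the annotated start, in Rpl39 and Rpl22l1 it lay after it, and in Rps27l before it. A missing tract says only that these letters are not in this window.

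Other motifs were searched on both strands of the 300-base promoters; a match may overlap another motif. The letters CCGGAAG, an ETS-like site, were in 37.3% of core starts and 8.86% of all starts. The letters AAGATGGC, which YY1 is known to bind, were in 10.4% and 2.75%. The TATA box letters TATAAA were in 8.96% and 13.6%. The tract did not divide the core genes by response. In FcgRIIb knockout against WT under PBS, the median log2 fold change was 0.90 for the 33 core genes with a tract and 0.87 for the 24 matched genes without one. For IVIg against PBS in WT, the medians were 0.43 and 0.42. These are descriptions without a test.

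Levels were compared between genes per kilobase of summed exon length. By mean over 18 libraries Rplp1 was highest at 1757 CPM per kilobase (range 882 to 3879), and among the next were Rplp0 at 1491 (850 to 2537) and Rps15 at 1422 (775 to 2854). Rplp1 and Rplp0 are stalk proteins, and Rps15 belongs to the small subunit. The ranges over libraries overlapped almost fully. They come from the same libraries for each gene and do not show the order within a library, which was not tested. Of the core genes the lowest were Rps15a at 94.8, Rpl36a at 104.1, Rpl15 at 108 and Rpl35a at 118 CPM per kilobase. The length in that scale counts every annotated exon: 6270 bases for Rps15a, where its principal transcript has 5179 bases. Core lengths ran from 383 to 6270 bases with a median of 1781 bases, against a median of 4663 bases for other abundant genes.

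Of all counts, the 89 genes took 3.71% to 10.1% per library. In WT under PBS the share was 5.24%, 5.11% and 3.71%, a mean of 4.69% ± 0.852 (SD, n = 3). With IVIg it was 3.79%, 6.94% and 6.94% in WT, a mean of 5.89% ± 1.82 (SD, n = 3). The 2 WT groups overlapped: WT IVIg library 1 lay beside the lowest PBS library, and the other IVIg libraries lay above all 3 PBS libraries.

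Dectin-1 knockout libraries held 5.54%, 5.59% and 6.78% under PBS (mean 5.97% ± 0.703, SD, n = 3) and 7.95%, 5.28% and 4.75% with IVIg (mean 6.00% ± 1.71, SD, n = 3). FcgRIIb knockout libraries held 5.65%, 7.56% and 10.1% under PBS (mean 7.77% ± 2.23, SD, n = 3) and 9.60%, 5.67% and 5.47% with IVIg (mean 6.92% ± 2.33, SD, n = 3). All 6 PBS libraries of the knockouts lay above the 3 WT PBS libraries, and the 6 IVIg libraries of the knockouts lay within the range of WT IVIg, apart from the first library of each. The small subunit genes took 0.800 to 0.898 counts for each count of the large subunit genes, so the balance of the subunits moved little while the total moved by more.

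**Figure D1:**
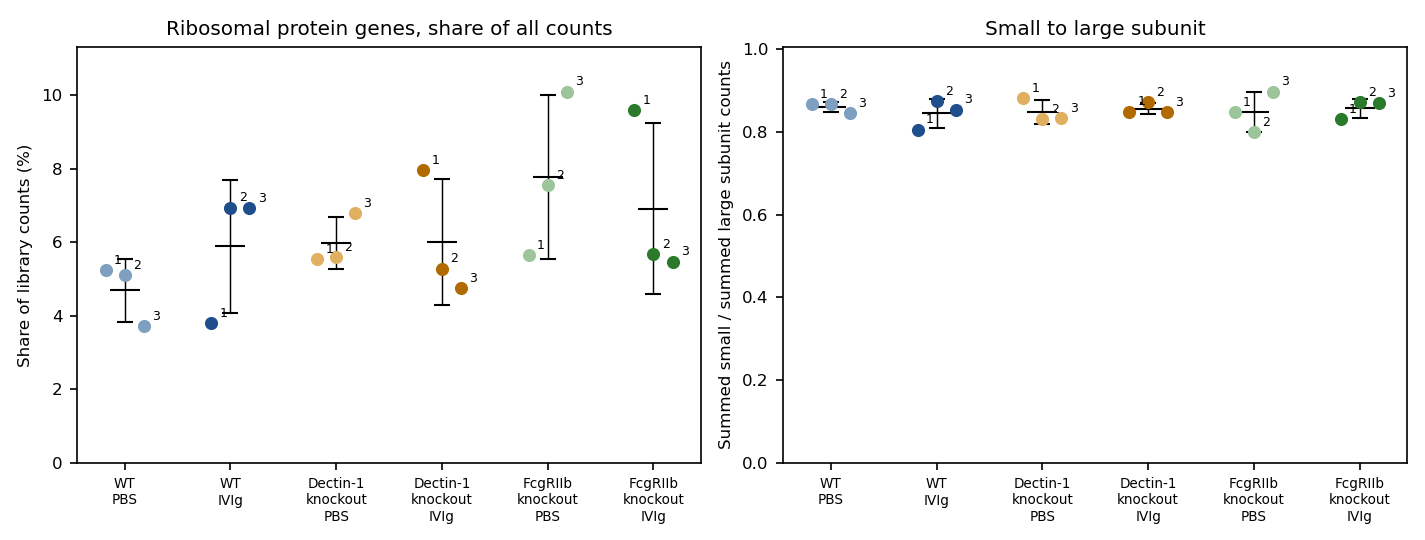
Share of counts in the 89 ribosomal protein genes, in percent, and counts of small per count of large subunit genes, for each library by group. Points are libraries and bars are group means of 3 libraries with SD. The share ran from 3.71% to 10.1% and the subunit ratio from 0.800 to 0.898.

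The core genes moved as a block from library to library. A single value per library, the mean of the core genes' log2 CPM after each gene was centred on its 18-library mean, held 82.0% of their variance, and 92.9% without the shallow FcgRIIb knockout PBS library 2. It stood at -0.26, -0.28 and -0.82 in WT PBS and at -0.75, 0.22 and 0.30 in WT IVIg. In the Dectin-1 knockout it was -0.14, -0.11 and 0.23 under PBS and 0.52, -0.23 and -0.41 with IVIg. In the FcgRIIb knockout it was -0.15, 0.31 and 1.01 under PBS and 0.91, -0.16 and -0.18 with IVIg.

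One library set most groups apart. WT PBS library 3, WT IVIg library 1 and Dectin-1 knockout IVIg library 3 each held the lowest value of their group for 77 of 77 core genes. Dectin-1 knockout IVIg library 1 and FcgRIIb knockout IVIg library 1 each held the highest value of their group for 77 of 77. FcgRIIb knockout PBS library 3 was the highest of all 18 libraries for 46 core genes, and WT PBS library 3 the lowest of all for 56. Within 4 of the 6 groups the libraries therefore differed by more than 0.9 on the log2 scale in their common level, as much as the largest median difference between groups.

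**Figure D2:**
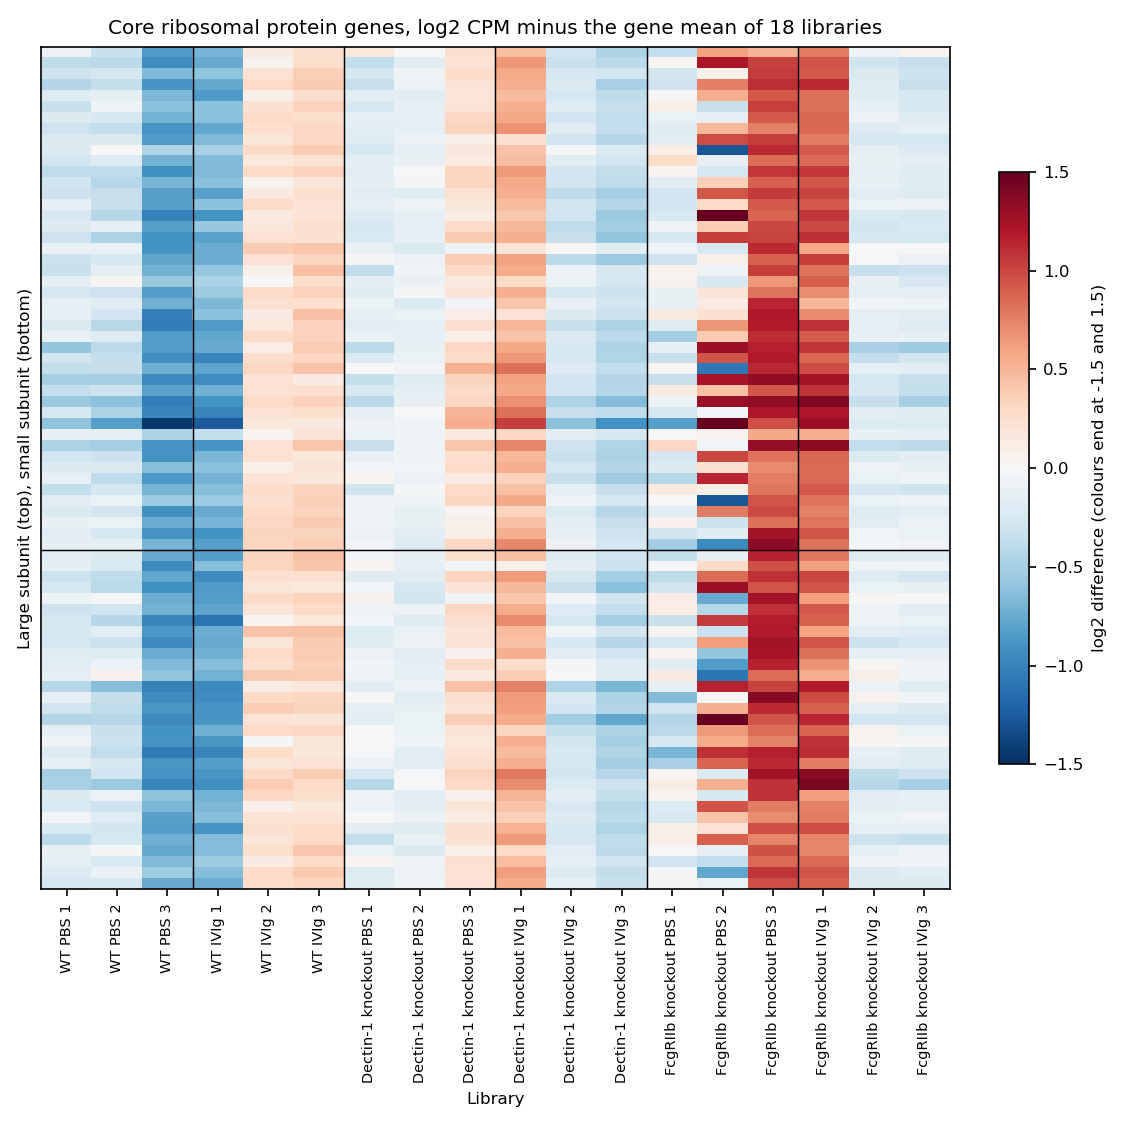
Log2 CPM of each core gene minus its mean over 18 libraries (colour), with genes in rows (not named), large subunit above small, and libraries in columns by group. Whole columns share a colour: WT PBS 3 and WT IVIg 1 are low, FcgRIIb knockout PBS 3 and IVIg 1 are high, and FcgRIIb knockout PBS 2 is mixed.

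Differences between groups were tested with edgeR's quasi-likelihood test on 17040 genes, with p adjusted by Benjamini-Hochberg over all of them; 88 of the 89 genes entered, and Rpl10l, with counts in only 1 library, did not. The comparisons share groups: each WT PBS or WT IVIg group is the control of several, so they are not independent of one another.

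IVIg against PBS in WT asked what IVIg does in mice with both receptors. All 77 core genes had higher estimates with IVIg, with a median log2 fold change of 0.42 (range 0.16 to 0.74) where the median of all tested genes was 0.01. Small and large subunit genes had medians of 0.42 and 0.43. No member passed the test (0 of 88; 0.00587% of all genes passed), the smallest adjusted p was 1, and none had an unadjusted p under 0.05 (2.51% of all genes). Only Rpl3l had all IVIg libraries above all PBS libraries (1 of 88; 3.44% of all genes).

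Rplp0, the stalk's base, was at 2191, 2208 and 1410 CPM under PBS and at 1465, 2941 and 3120 CPM with IVIg. Its log2 fold change was 0.37 (SE 0.35), no larger than its error. The smallest unadjusted p among the members reported here, in edgeR's test, belonged to Rpl3, a protein beside the peptidyl transferase centre, at 0.53 (SE 0.32, unadjusted p = 0.108). Without WT IVIg library 1 the members' median was 0.68, and it was 0.25 without WT PBS library 3 or WT IVIg library 3. Of 15 non-classical monocyte markers 14 had higher estimates with IVIg and 0 passed; their summed level was 8342 to 10756 CPM with IVIg and 5575 to 7499 CPM under PBS, and their part in these values was not tested.

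In Dectin-1 knockout mice IVIg and PBS differed less. The core median was 0.02, 44 of 77 core genes had higher estimates, and the range was -0.18 to 0.16. No member passed (0 of 88; 0% of all genes), and none had an unadjusted p under 0.05 (3.27% of all genes). Rpsa, which builds into the small subunit and is also known as the laminin receptor precursor, was at 1396, 1507 and 1838 CPM under PBS and at 2327, 1437 and 1255 CPM with IVIg, 1 library above and 1 below the whole PBS range. The members' median was -0.31 without Dectin-1 knockout IVIg library 1, and -0.16 under limma voom with sample weights. The 2 members with the smallest unadjusted p were copies, Rpl6l at -0.79 (SE 0.59) and Rps3a3 at -0.50 (SE 0.60). All 12 neutrophil markers had higher estimates with IVIg, none passing; their summed level was 679, 1538 and 132 CPM with IVIg and 129 to 166 CPM under PBS, and the order of these sums was not that of the core level, which was highest in library 1 (0.52), then library 2 (-0.23), which held the largest sum, and lowest in library 3 (-0.41). Their part was not tested.

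In FcgRIIb knockout mice the estimates leaned the other way, with a core median of -0.20 and 7 of 77 core genes higher (range -1.14 to 0.11). No member passed (0 of 88; 0% of all genes), and none had an unadjusted p under 0.05 (3.19% of all genes). The members' median was -0.18 over all libraries, 0.18 without FcgRIIb knockout PBS library 3 and -0.60 without FcgRIIb knockout IVIg library 1, so 1 library decided its sign. The smallest unadjusted p values belonged to Rps4l at 0.88 (SE 0.52) and Rpl39 at -1.14 (SE 0.68). Without the shallow library, where Rps4l had no count and Rpl39 stood highest, Rps4l came to 0.81 (SE 0.54) and Rpl39 to 0.14 (SE 0.61), on the other side of 0, and the members' median to -0.28.

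Under PBS the FcgRIIb knockout stood farthest from WT. All 77 core genes had higher estimates, with a median log2 fold change of 0.88 (range 0.39 to 2.53) where the median of all genes was -0.05; small and large subunit medians were 0.88 and 0.87. None of the 88 members passed the adjusted test (0% of all genes), with a smallest adjusted p of 0.476 in edgeR's test. At an unadjusted p under 0.05 stood 57 of 88 members (9.64% of all genes), all 57 higher (6.14% of all genes were higher at that p). They were 55 core genes, 21 small and 34 large, and 2 copies. The legacy form of edgeR's fit also gave 57 (10.9% of all genes). In 39 of 88 members all 3 knockout libraries lay above all 3 WT libraries (3.63% of all genes), and in 54 of 88 without the shallow library (12.4% of all genes).

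Rplp0 was at 2191, 2208 and 1410 CPM in WT and at 2484, 1889 and 4209 CPM in the FcgRIIb knockout, and the groups overlapped through the shallow library. Its log2 fold change was 0.57 (SE 0.35). Rplp1, an acidic stalk protein, was at 727, 695 and 441 CPM in WT and at 676, 716 and 1936 CPM in the knockout, where 1 library stood far above and the other 2 beside WT. Rplp2, its partner in the stalk, had a log2 fold change of 0.67 (SE 0.46).

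Rpsa had a log2 fold change of 0.78 (SE 0.37; unadjusted p = 0.0464 in edgeR's test) and levels of 1322, 1334 and 936 CPM in WT against 1553, 1478 and 3087 CPM. Rps27a, made as a fusion with ubiquitin, had 1.03 (SE 0.40; unadjusted p = 0.0176 in edgeR's test). The groups did not overlap for Rpsa, yet 1 knockout library carried most of its difference.

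The size rested on single libraries. The members' median was 0.87 over all libraries, 0.47 without FcgRIIb knockout PBS library 3 and 0.71 without WT PBS library 3, and the members at an unadjusted p under 0.05 numbered 16 (2.37% of all genes in that fit) and 26 (4.52%). Without the shallow library the median was 0.95, with 64 members at that p (10% of all genes). Plasma cell markers leaned the same way. Of 8, 6 had higher estimates in the FcgRIIb knockout and none passed, and their summed level was 753, 2253 and 1028 CPM against 444 to 495 CPM in WT. Jchain, which marks plasma cells, was at 99.9, 703 and 158 CPM against 3.86 to 15.1 CPM. The highest summed level was in the shallow library, not in the library with the highest ribosomal protein level. B cell sums were also higher without overlap, at 384 to 453 against 217 to 311 CPM. So were neutrophil sums, at 203 to 212 against 91.2 to 200 CPM. Likewise, erythroid sums were at 11.7 to 25.4 against 4.67 to 8.96 CPM and dendritic sums at 496 to 562 against 372 to 455 CPM. T cell, natural killer, red pulp macrophage and monocyte sums overlapped. Without the shallow library, 5 of 8 plasma cell and 9 of 13 B cell genes were higher. In that fit so were 6 of 12 neutrophil, 6 of 7 erythroid and 3 of 8 dendritic genes. The part of these cells in the result was not tested.

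Dectin-1 knockout against WT under PBS gave 77 of 77 core genes with higher estimates, a core median of 0.41 (range 0.15 to 1.09) and medians of 0.40 for the small and 0.45 for the large subunit. No member passed (0 of 88; 0.0411% of all genes), none had an unadjusted p under 0.05 (4.03% of all genes), and the smallest adjusted p was 0.909 in edgeR's test. The groups did not overlap in 51 of 88 members, with the knockout higher (7.92% of all genes). Rpl39, a small protein that lines the exit tunnel, was at 188, 161 and 105 CPM in WT and at 268, 277 and 418 CPM in the knockout, without overlap; its log2 fold change was 1.09 (SE 0.66; adjusted p = 0.909 in edgeR's test). Rps20, with the smallest unadjusted p of the members, had 0.77 (SE 0.43; adjusted p = 0.909 in edgeR's test). The members' median of 0.41 was 0.27 without WT PBS library 3. Among markers of other cells, 6 of 6 erythroid genes had higher estimates (summed level 13.6 to 16.1 against 4.67 to 8.96 CPM), 7 of 10 red pulp macrophage genes did (960 to 1150 against 658 to 944 CPM), and 2 of 15 T cell genes did (18.5 to 29.3 against 33.8 to 52.7 CPM). None of these sums overlapped between the groups. Of 15 non-classical monocyte markers 12 had higher estimates (7392 to 8615 against 5575 to 7499 CPM). None of these genes passed. Plasma cell sums also did not overlap and were lower in the knockout, at 384 to 440 against 444 to 495 CPM. The part of any of these cells was not tested.

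With IVIg in both genotypes the Dectin-1 knockout lay close to WT: the core median was 0.02 (range -0.22 to 0.29), 48 of 77 core genes had higher estimates, and no member passed (0 of 88; 0.0528% of all genes) or had an unadjusted p under 0.05 (3.46% of all genes). The 2 smallest unadjusted p values belonged to copies, Rps12l1 at -1.36 (SE 1.16) and Rps3a2 at 0.46 (SE 0.51). The members' median of 0.03 was -0.32 without Dectin-1 knockout IVIg library 1, -0.24 without WT IVIg library 1, 0.18 without WT IVIg library 3 and 0.20 without Dectin-1 knockout IVIg library 3, and it was -0.33 under limma voom. In this comparison 1 of the 12 neutrophil markers passed, higher in the knockout.

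The FcgRIIb knockout with IVIg had a core median of 0.29 against WT with IVIg (range -0.01 to 0.66) and 76 of 77 core genes with higher estimates. No member passed (0 of 88; 0.0117% of all genes). The 2 members at an unadjusted p under 0.05 (5.45% of all genes) were also the 2 with no overlap between groups (6.1% of all genes), both copies: Rps3a2 at 1.09 (SE 0.49; unadjusted p = 0.0392 in edgeR's test) and Rpl32l at 1.20 (SE 0.55; unadjusted p = 0.0424 in edgeR's test). The members' median of 0.30 was -0.16 without FcgRIIb knockout IVIg library 1, 0.04 without WT IVIg library 1 and -0.16 under limma voom, so the sign was not stable. Without the shallow library, which is in neither group but enters the shared fit, only Rpl32l stayed under 0.05 before adjustment (5.83% of all genes). Markers of other cells also had higher estimates, none passing: 14 of 15 of T cells, 7 of 7 of natural killer cells, 7 of 8 of plasma cells and 6 of 6 of erythroid cells. Their summed levels in the FcgRIIb knockout against WT were 49.1 to 84.6 against 19.8 to 60.8 CPM for T cells and 8.17 to 21.9 against 3.73 to 4.63 CPM for natural killer cells. For plasma cells they were 780 to 2087 against 357 to 822 CPM, and for erythroid cells 15.8 to 48.9 against 4.85 to 18.8 CPM. Of these sums only those of natural killer cells did not overlap. Non-classical monocyte sums went the other way without overlap, at 6497 to 7793 against 8342 to 10756 CPM. In the fit without the shallow library 4 of 15 non-classical monocyte markers had higher estimates. The part of any of these cells in the result was not tested.

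The difference of IVIg effects between a knockout and WT was tested as an interaction. For the Dectin-1 knockout the core median was -0.41, with 0 of 77 core genes above 0; Rps25 had -0.62 (SE 0.49). No member passed (0 of 88; 0% of all genes) and none had an unadjusted p under 0.05 (3.74% of all genes). The members' median was -0.24 without WT PBS library 3 or without Dectin-1 knockout IVIg library 3, and -0.73 without Dectin-1 knockout IVIg library 1. For the FcgRIIb knockout the core median was -0.65, again with 0 of 77 above 0. Rpl35, beside the tunnel's exit, had -1.22 (SE 0.61; unadjusted p = 0.0594 in edgeR's test) and Rpl31 -0.92 (SE 0.46; unadjusted p = 0.0621 in edgeR's test). None of the 88 passed (0% of all genes), and 0 had an unadjusted p under 0.05 (2.86% of all genes). With the shallow library left out, 2 did (3.58% of all genes), Rpl31 among them at -1.06 (SE 0.48). The members' median for this knockout was -0.63 over all libraries, -0.18 without FcgRIIb knockout PBS library 3 and -1.02 without FcgRIIb knockout IVIg library 1.

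Under limma voom with sample weights, run as an alternative, no member passed in any of the 9 comparisons either, but more had an unadjusted p under 0.05 in some. For IVIg against PBS there were 21 members in WT, all higher (10.8% of all genes), 0 in the Dectin-1 knockout (7.58%) and 2 in the FcgRIIb knockout (2.6%). For Dectin-1 knockout against WT there were 6 under PBS (12.1%) and 0 with IVIg (8.63%). For FcgRIIb knockout against WT there were 40 under PBS, all higher (5.92%), and 3 with IVIg (8.63%). For the interactions there were 20 in the Dectin-1 knockout (15.6%) and 41 in the FcgRIIb knockout (6.26%), all below 0, with member medians of -0.68 and -0.88. The smallest adjusted p of a member under limma voom was 0.265, in the Dectin-1 interaction.

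**Figure D3:**
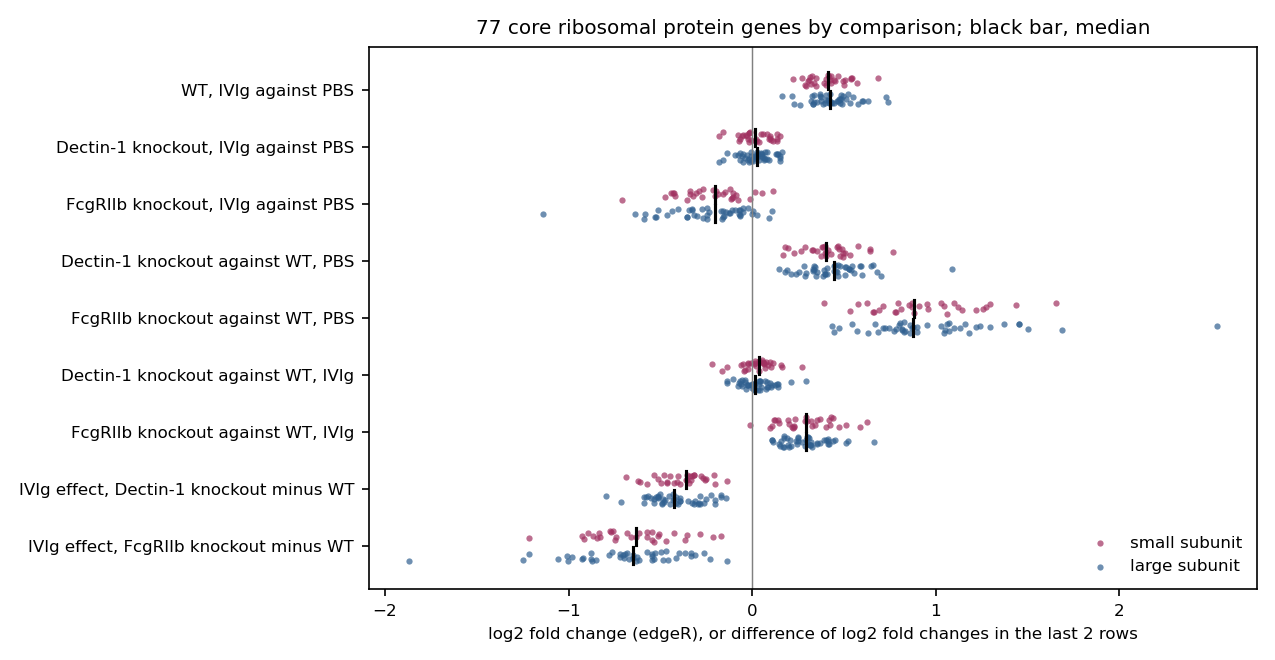
Log2 fold change of each core gene in the 9 comparisons (rows), in log2 units; the last 2 rows are differences of log2 fold changes. Points are genes coloured by subunit and black bars are medians. In FcgRIIb knockout against WT under PBS the median is 0.88, and Rpl39 at 2.53 lies far above the rest.

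A few genes left the block in FcgRIIb knockout against WT under PBS. Rpl39 had the largest estimate, 2.53 (SE 0.71; adjusted p = 0.476 in edgeR's test). It was at 161, 2081 and 557 CPM in the knockout and at 188, 161 and 105 CPM in WT. Across the other 12 libraries it was at 120, 318 and 314 CPM in WT IVIg, at 268, 277 and 418 CPM in Dectin-1 knockout PBS, at 586, 187 and 151 CPM in Dectin-1 knockout IVIg, and at 697, 247 and 246 CPM in FcgRIIb knockout IVIg. Only the shallow library exceeded 697 CPM, and its 2081 CPM came from 1474 counts.

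Rps24, a small subunit protein, showed the same pattern with 730, 3709 and 1909 CPM in the knockout against 729, 740 and 510 CPM in WT, and a log2 fold change of 1.66 (SE 0.50). In edgeR's fit without the shallow library Rpl39 had 1.24 (SE 0.60) and Rps24 0.99 (SE 0.48), where Rpl10a had 1.16 (SE 0.42) and Rpl37a 1.51 (SE 0.54). Rpl10a of the large subunit's L1 stalk did not depend on the shallow library alone. It was at 376, 857 and 750 CPM in the knockout and at 281, 276 and 193 CPM in WT, without overlap, with a log2 fold change of 1.37 (SE 0.39; adjusted p = 0.477 in edgeR's test). Rpl37a was at 540, 1395 and 1435 CPM against 385, 372 and 278 CPM, also without overlap, with a log2 fold change of 1.69 (SE 0.50).

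DESeq2, run as an alternative, called 6 members higher in this comparison (1.03% of all genes): Rpl10a at 1.43 (adjusted p = 0.0409), Rpl37a at 1.73 (adjusted p = 0.0413), Rpl39 at 2.70 (adjusted p = 0.0452), Rps24 at 1.73 (adjusted p = 0.0452), Rpl23a at 1.54 (adjusted p = 0.0456) and Rpl35 at 1.52 (adjusted p = 0.0474). Rpl23a and Rpl35 sit at the tunnel's exit. Without the shallow library DESeq2 called none of the members (0.105% of all genes), and Rpl39 came to 1.23 (adjusted p = 0.487 by DESeq2) and Rpl10a to 1.16 (adjusted p = 0.322 by DESeq2). In edgeR's fit without FcgRIIb knockout PBS library 1, 1 member passed (0.22% of all genes): Rps27l at 1.64 (SE 0.31; adjusted p = 0.0427 in edgeR's test).

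The shallow library differed from the other 17 within the family. Against their mean, its log2 level was lowest for Rpl18 (-1.36), Rpl8 (-1.35), Rps2 (-1.16), Rpl36 (-1.14) and Rplp2 (-1.01). It was highest for Rpl39 (3.03), Rps24 (2.01), Rpl23a (1.76), Rpl37a (1.37), Rpl35 (1.36) and Rps13 (1.35). The SD over core genes was 0.799 there and 0.0753 to 0.234 in the others. Rpl18 was at 333 CPM from 236 counts against 578 to 1766 CPM elsewhere, below the range of all other libraries. Over the 77 core genes, the Spearman correlation of this library's relative level with the GC content of the principal transcript was -0.60, against -0.39 to 0.36 in the others; GC content ran from 41.3% to 60.8%. The genes share a library and its depth, so the correlation is a description, and the part of base composition in the calls was not tested.

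The like-named copies were compared with their partners. Rps27l, known as a p53 target, had 1.16 (SE 0.37) and its partner Rps27 had 1.22 (SE 0.45) in FcgRIIb knockout against WT under PBS. Rpl22l1 had 1.10 (SE 0.44) and Rpl22 had 1.13 (SE 0.39), but Rpl22l1 was at 49.5, 241 and 131 CPM in the knockout and at 75.2, 55.7 and 33.7 CPM in WT, highest in the shallow library. Rpl7l1, whose product is found in assembling large subunits, had 0.10 (SE 0.20) where Rpl7 had 1.05 (SE 0.37). Leaving out the shallow library gave 1.001 for Rps27l and 1.01 for Rps27, 0.71 for Rpl22l1 and 0.999 for Rpl22, and 0.16 for Rpl7l1 and 0.71 for Rpl7. Differences within pairs were not tested.

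Rpl7l1 was the flattest of the copies. Its level was 104.3, 112 and 93.4 CPM in WT PBS, 101, 109 and 110 CPM in WT IVIg, 112, 106 and 86.9 CPM in Dectin-1 knockout PBS, and 101, 95.1 and 92.2 CPM in Dectin-1 knockout IVIg. It was 86.3, 84.7 and 146 CPM in FcgRIIb knockout PBS and 118, 107 and 105 CPM in FcgRIIb knockout IVIg. WT PBS library 3 was the lowest of its group here too, by a smaller ratio than for Rpl7.

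Other copies were rare. The 4 lowest of all members by mean level per length were Rpl10l at 0.00202 CPM per kilobase, Rpl39l at 0.213, Rps12l1 at 0.583 and Rpl3l at 2.47. Rpl10l and Rpl39l are known from testis and Rpl3l from heart and skeletal muscle. Rpl3l was at 1.83, 2.29 and 2.51 CPM in WT PBS and at 2.62, 6.90 and 4.04 CPM in WT IVIg, without overlap; its log2 fold change was 1.04 (SE 0.65), where Rpl3 had 0.53. Rpl3l reached 11.1 CPM in Dectin-1 knockout IVIg library 1 and 12.9 CPM in FcgRIIb knockout IVIg library 1, the libraries with the highest core level of their groups. Rps4l stood at 24.0 CPM in that last library against 5.80 and 7.18 CPM in the others of its group, and at 0 in the shallow library, where 3 counts are worth 4.17 CPM. These 2 copies had the widest spread within groups (SD 1.07 for Rps4l and 1.04 for Rpl3l on the log2 scale).

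Of the 12 copies, 8 were annotated on GRCm39 with a span equal to their summed exon length, so that the merged transcripts leave no intron; 2 core genes shared that feature. Rps3a2 (chromosome 14, 88360453 to 88361244) is one of the 8. It was at 3.47, 10.1 and 10.01 CPM in WT IVIg and at 13.1, 17.6 and 19.2 CPM in FcgRIIb knockout IVIg. In the same libraries, rows named as pseudogenes of a member held 0.414%, 0.681% and 0.696% of the members' counts in WT IVIg and 0.731%, 1.47% and 1.45% in FcgRIIb knockout IVIg. Both quantities were lowest in WT IVIg library 1. The sources used here do not say how reads were divided between near-identical copies, and the part of that division in these 2 copies was not tested. Rps3a1, the partner of Rps3a2, had 0.32 (SE 0.32) in that comparison, and Rpl32, the partner of Rpl32l, 0.41 (SE 0.40).

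Length was checked because ribosomal protein genes are short. Over 4969 other abundant genes, the Spearman correlation of summed exon length with a library's level relative to the other libraries ran from -0.64 to 0.57. It was 0.52 in WT PBS library 3 and 0.57 in WT IVIg library 1, where the core genes were lowest, and -0.64 in both FcgRIIb knockout PBS library 3 and FcgRIIb knockout IVIg library 1, where they were highest. Short genes other than the members therefore stood low and high in the same libraries.

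**Figure D4:**
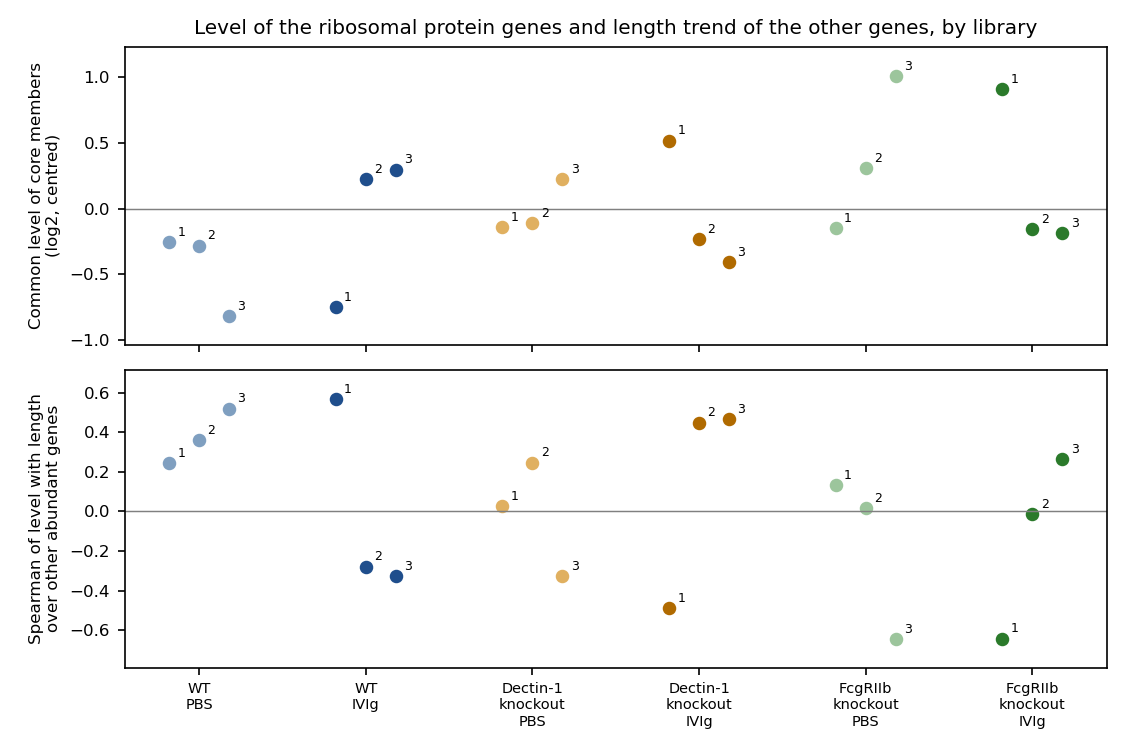
Common level of the core genes (log2, centred on the 18-library mean, top) and Spearman correlation of level with summed exon length over other abundant genes (bottom), 1 point per library by group. The libraries with the lowest core level, -0.82 and -0.75, have correlations of 0.52 and 0.57, and those with the highest, 1.01 and 0.91, have -0.64.

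The same showed in the comparisons. In FcgRIIb knockout against WT under PBS, core genes of 1000 to 1999 bases had a median log2 fold change of 0.93 and the 461 other abundant genes of that length 0.49. At 3000 to 4999 bases the medians were 0.83 over 13 core genes and 0.04 over 1394 others. The core genes' medians thus varied little up to 4999 bases (0.95, 0.93, 0.81 and 0.83) while those of the others went from 0.63 to 0.04. At 5000 bases or more stood only Rps15a and Rps24, with a median of 1.46, against -0.27 in 2292 others; without the shallow library the medians were 1.06 and -0.28. The Spearman correlation of length with fold change was -0.58 over the others and -0.16 over the core genes, with genes sharing their libraries.

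For IVIg in WT, core genes under 1000 bases had a median of 0.45 and others 0.25; at 3000 to 4999 bases these were 0.42 and 0.05. For Dectin-1 knockout against WT under PBS they were 0.48 and 0.31, and 0.41 and 0.04. With each library's length trend removed, the members' medians were 0.26 for IVIg in WT, 0.22 for the Dectin-1 and 0.49 for the FcgRIIb knockout under PBS. The interaction medians became -0.22 and -0.42, and that of the FcgRIIb knockout against WT with IVIg 0.12. In the FcgRIIb knockout under PBS, 34 members then had an unadjusted p under 0.05 (8.32% of all genes), 33 of them among the 57 above, and none passed. How the length trend arose was not tested.

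**Figure D5:**
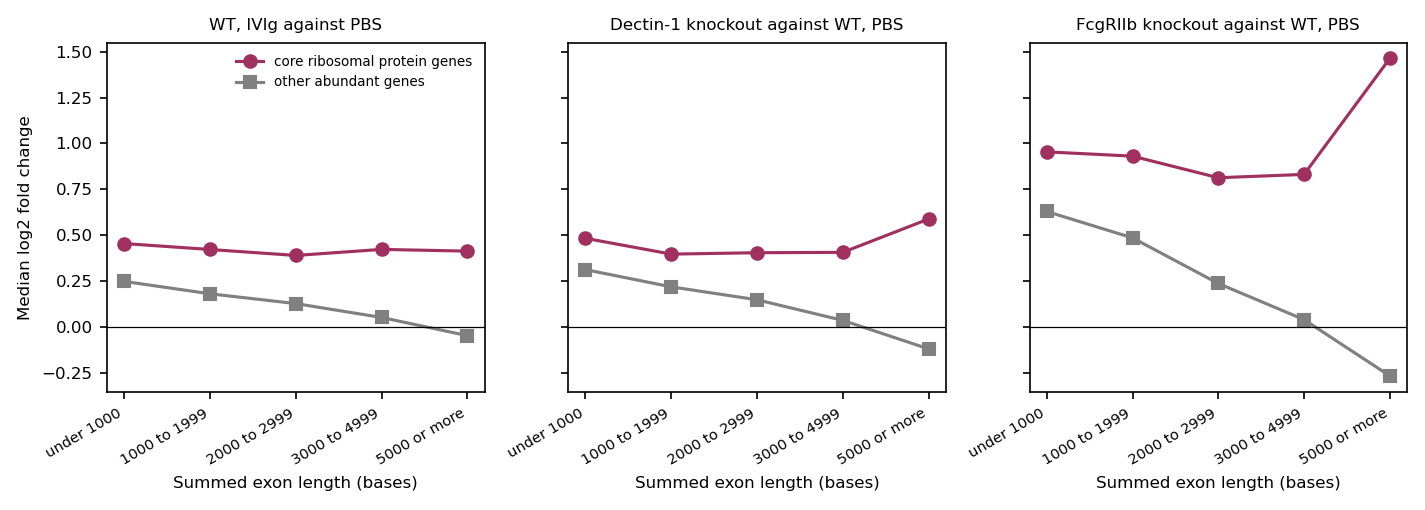
Median log2 fold change of core genes and of other abundant genes by summed exon length in bases, for IVIg in WT and for each knockout against WT under PBS. Medians of the other genes are lower the longer the genes, from 0.63 to -0.27 in the FcgRIIb knockout, and those of the core genes stay above them in each length class.

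Other genes of the translation machinery were described by lists. Of 23 translation factors and related genes with TOP messenger RNAs, 22 had higher estimates for IVIg in WT (median 0.31), 20 for the Dectin-1 knockout under PBS (0.30) and 20 for the FcgRIIb knockout under PBS (0.54). Of 78 mitochondrial ribosomal protein genes, which serve a separate ribosome and do not carry the TOP motif as a class, 69, 71 and 74 did (medians 0.22, 0.28 and 0.62). No gene of either list passed in any comparison, and 33 mitochondrial genes had an unadjusted p under 0.05 in the last (9.64% of all genes). Those medians had the sign of the members' and were smaller. In the shallow library the mitochondrial list had its lowest level of all 18 libraries (-0.74 on the centred log2 scale) where the core genes were at 0.31; without that library its median in the last comparison was 0.63, with 75 of 78 genes higher, and that of the factors 0.54.

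The 46 genes of ribosome biogenesis, which process ribosomal RNA and assemble the subunits, had medians of -0.01, 0.05 and 0.05 in those 3 comparisons. The 25 genes of RNA polymerases I and III, which make the ribosomal RNA, had 0.08, 0.08 and -0.02. The 18 genes of MYC and mTORC1 control had -0.05, -0.22 and -0.19. None of their genes passed in any of the 9 comparisons. In the shallow library the biogenesis list was at -2.06 on the centred log2 scale, against 0.035 to 0.229 in the other libraries. Without that library the biogenesis median for FcgRIIb knockout against WT under PBS was 0.07. The medians of the polymerase and the MYC and mTORC1 lists were then 0.02 and -0.20.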

How the data were processed

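The deposited table holds raw fragment counts per gene that the authors made with featureCounts 2.0.2 against Ensembl release 104 (GRCm39), per the file headers; primary alignments were counted and a fragment on overlapping genes counted for each, with no strand option in the header. The submitters' processing notes name STAR, and edgeR 3.36. Libraries were made from 100 ng of total RNA with a stranded mRNA kit, per the labels' protocols. Without strand, antisense genes cannot be told apart, and genes with near-identical copies or pseudogenes are uncertain. Of 55416 rows 1492 had no symbol, and 18 deposited columns that match no sample were not used.

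Counts were filtered (filterByExpr, 17040 genes), TMM scaled and fitted in 1 quasi-likelihood model of all 18 libraries and 6 groups in edgeR 4.0.16 (R 4.3.3), with Benjamini-Hochberg adjustment at 0.05 in each of 9 comparisons. On simulated data this form of the fit called more unchanged genes than nominal, and the legacy form did not. Alternatives used DESeq2 1.42.0, limma 3.58.1, other scalings and filters (1 CPM in 3 libraries), a spline with 4 degrees of freedom for length, and each library left out. Levels on the log2 scale carry a prior count of 2 or a pseudocount of 0.5. Library pairs within a group differed by more than sampling noise. The SE of a fold change in edgeR's fit includes the spread between libraries of a group. The worth of 3 counts in CPM reflects the depth of a library only.

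Named genes were the stalk genes, Rpsa and Rps27a, the 4 highest and 4 lowest per length, the 2 with the smallest p per comparison, the 2 most and least raised by IVIg, copies with partners and the 2 most variable; the lowest core genes and those that stood apart in the shallow library were named after their values were seen. Members and lists were chosen with earlier results of these data known. Member counts in the limma voom fit and values without the shallow library were added after seeing the data. Results on some named items are not reported here.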

Additional observations from a re-analysis of the deposited data

How the results depend on the processing

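In 9 comparisons edgeR's quasi-likelihood test called 0 members. The count differed in 2 settings, both for FcgRIIb knockout against WT under PBS: 6 members with DESeq2, and 0 to 1 as each library was left out, the 1 being Rps27l without FcgRIIb knockout PBS replicate 1. Rpl39 at 2.70 and Rpl10a at 1.43 were among DESeq2's calls, and with DESeq2 and without the shallow library, an alternative chosen after seeing the data, 0 were called. Under the other scalings, filters, fits and pooled pseudogene counts no member was called. As each library was left out, the members' medians did change sign in some comparisons. IVIg against PBS ran from -0.31 to 0.19 in the Dectin-1 knockout and from -0.60 to 0.18 in the FcgRIIb knockout. With IVIg in both genotypes, Dectin-1 knockout against WT ran from -0.32 to 0.20, and FcgRIIb knockout against WT from -0.16 to 0.47. Depth limits FcgRIIb knockout PBS replicate 2, where 3 counts are worth 4.17 CPM. No paired analysis was possible because the labels carry no replicate numbers, and of the title codes of unstated meaning only 1 recurs across groups (WT IVIg 3 and FcgRIIb knockout PBS 3).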

Other observations

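Rows named as pseudogenes of a ribosomal protein gene, 321 in all, held a share of the members' counts that did not follow the groups. It was 0.410% to 0.430% in WT PBS libraries 2 and 3 and WT IVIg library 1, and 1.45% to 1.48% in WT PBS library 1, Dectin-1 knockout PBS library 1 and FcgRIIb knockout IVIg libraries 2 and 3. The other libraries lay from 0.664% to 0.818%. Rps24-ps3 was at 69.8 CPM in WT PBS library 1 and at 10.8 and 7.59 CPM in the others of its group, where Rps24 itself was at 729, 740 and 510 CPM. Over all libraries the rows of Rps6 pseudogenes held the largest share of a parent's counts, 9.13%, followed by those of Rps16 at 6.08%.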
